A study of Mus musculus with 6 samples.

Results

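The genes described here are 9 enzymes and partners that are classical targets of NRF2: Nqo1, Aldh3a1, Ephx1, Cbr1, Cbr3, Hmox1, Blvrb, Osgin1 and Slc48a1. They were chosen by symbol, as known NRF2 targets that handle quinones, aldehydes, carbonyls, epoxides and heme. All 9 were found among the 30438 gene symbols of the count table, and all 9 passed the filter on low counts. RNA was measured by poly(A)-selected sequencing in HEI-OC1, a conditionally immortalised line from the mouse organ of Corti that is used to study toxicity to hearing cells. The control group is HEI-OC1 of genotype WT (3 libraries), and the other group is Nrf2 KO HEI-OC1 of genotype Nrf2 knockout (3 libraries). Both groups grew at 33 °C in 10% CO2 and 10% FBS with penicillin and streptomycin, and no further drug is recorded. The submitters ask which genes underlie the greater resistance of the knockout cells to cisplatin. The sources used here do not say whether the knockout line is a single clone or where the edit lies.

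NRF2, encoded by Nfe2l2, is a transcription factor that KEAP1 holds at a low level by sending it for degradation. Under oxidative or electrophilic stress it escapes, pairs with small MAF proteins and binds antioxidant response elements in front of detoxification genes. NQO1 and the carbonyl reductases reduce quinones and carbonyls, ALDH3A1 oxidises aldehydes, and EPHX1 opens epoxides. HMOX1 breaks heme down to biliverdin, and BLVRB is a biliverdin reductase.

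The targeted transcript did not fall: Nfe2l2 stood at 74.2, 126.5 and 96.7 CPM (counts scaled by library size and TMM factors) across control replicates 1, 2 and 3. Libraries labelled Nrf2 KO gave 395.7, 235.6 and 204.5 CPM. Counts per gene cannot show a small edit that spares the mRNA, so each direction below describes libraries by their label. The libraries held between 29130007 and 51285343 counts. Replicate 1 of each group stood apart on the second principal component (41.2% of the variance, against 51.2% on the first, which split the groups). Nothing in the labels ties the replicates to separate cultures, and the p-values then measure only the spread between samples, which may be technical. The labels describe the cells as cochlear stem cells, and Sox2 had 0 counts in all 6 libraries, as did the hair cell genes Atoh1, Slc26a5 and Calb2. The counts were listed under gene symbols of rat type, and mouse reads counted on gene models of another species can be lost. For these genes and the markers below, 0 counts or a low sum therefore cannot be told from lost reads. The 12 prosensory and supporting cell markers summed to between 220.0 and 228.8 CPM in control libraries and between 370.1 and 439.1 CPM in those labelled Nrf2 KO, and 2 of 6 tested were higher and 0 lower. The 9 hair cell markers in the table summed to between 33.1 and 45.2 CPM and between 62.5 and 76.5 CPM, with 1 of 2 tested higher. The 8 epithelial markers summed to between 0.922 and 1.83 CPM and between 5.40 and 7.69 CPM, with the 1 that could be tested higher and Krt8, Krt18, Krt19 and Esrp1 at 0. The 9 fibroblast markers summed to between 12235 and 12402 CPM in control libraries and between 10127 and 13033 CPM in those labelled Nrf2 KO. Of the 8 fibroblast markers tested, 5 were higher and 0 lower. The part of these 4 marker lists in the results below was not tested. Markers of blood cells, which carry much heme enzyme, were low: the 8 erythroid markers summed to between 0.630 and 1.15 CPM in control libraries and between 0.830 and 1.18 CPM in the others, with Hbb and Slc4a1 at 0. The 9 macrophage and leukocyte markers summed to between 16.6 and 21.4 CPM and between 12.1 and 21.5 CPM, with Adgre1 and Tyrobp at 0. Of the 3 macrophage and leukocyte markers tested, 1 was lower and 0 higher. In bulk RNA, fewer cells with a transcript and less transcript per cell cannot be told apart.

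Of the 9 genes, 1 fell and 0 rose in the quasi-likelihood test of edgeR, with p adjusted by Benjamini-Hochberg over 14618 genes (threshold 0.05). The gene that fell was Ephx1. Of all genes tested, 3.45% were called lower and 4.83% higher. At an unadjusted p under 0.05, 3 of the 9 were lower and 0 higher by edgeR, where all genes gave 11.6% and 13.4%. DESeq2 called 2 of the 9 lower (Ephx1 and Aldh3a1) and 0 higher, where it called 6.38% and 8.21% of all genes. The 9 genes had 6 negative and 3 positive log2 fold changes, with a median of -0.26, and the median of all genes tested was 0.04. The groups did not overlap for 6 of the 9: Nqo1, Aldh3a1, Ephx1, Hmox1 and Blvrb were lower in every library labelled Nrf2 KO than in every control library, and Cbr3 was higher. Of all genes tested, 17.1% were without overlap in the lower direction and 17.1% in the higher direction. With the replicate number as a block, 3 of the 9 were lower (Ephx1, Nqo1 and Aldh3a1) and 0 higher, where 7.92% and 10.4% of all genes were called. Without Nrf2 KO replicate 1, 3 were lower (the same 3 genes) and 2 higher (Cbr3 and Slc48a1), where 14.5% and 15.6% of all genes were called. Aldh3a1 and Ephx1 were both called lower, and 0 genes higher, with upper-quartile scaling (4.08% of all genes lower and 4.31% higher) and with library size alone (3.66% and 4.42%). Ephx1 alone was called with RLE size factors (3.45% and 4.95% of all genes), with limma-voom (3.74% and 4.84%), with no filter on low counts (1.98% and 2.85%) and with a filter of 1 CPM in 3 libraries (3.80% and 5.22%). Leaving out any 1 of the other 5 libraries lowered the calls over all genes as well. EdgeR then called 0 of the 9 without control replicate 1 (0.691% of all genes lower and 1.40% higher), control replicate 2 (0.659% and 1.37%), control replicate 3 (0.379% and 0.925%) or Nrf2 KO replicate 2 (0.740% and 1.79%). It called Ephx1 alone without Nrf2 KO replicate 3 (0.739% and 1.82%).

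**Figure D1:**
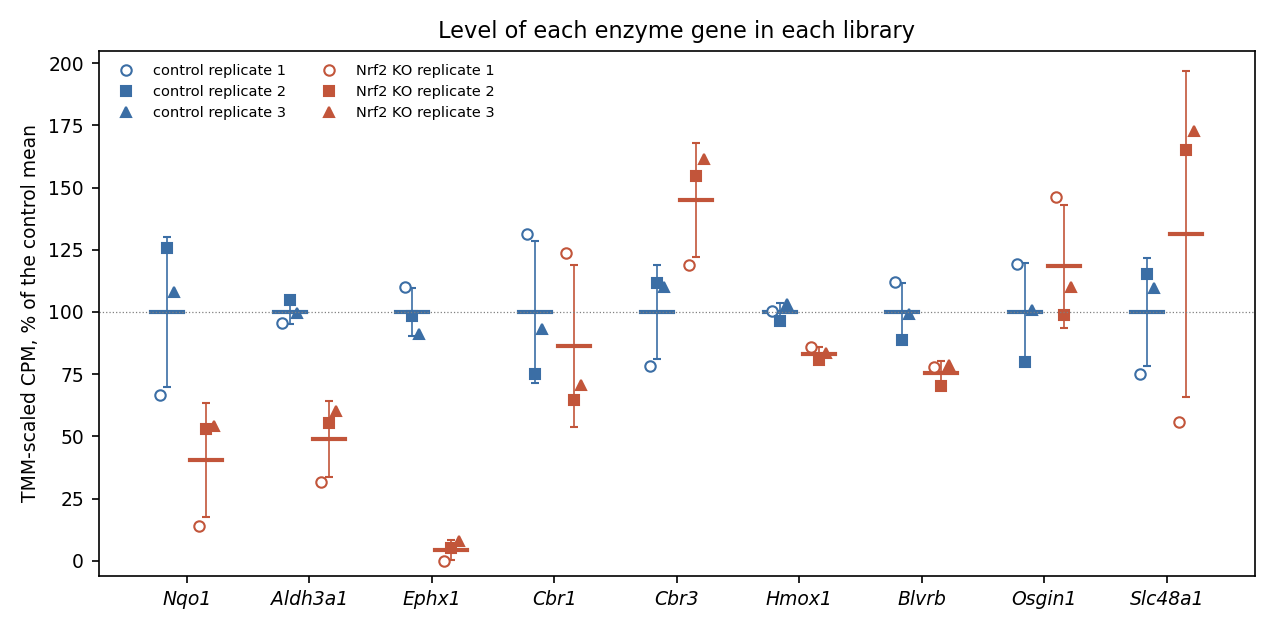
Level of each of the 9 genes in each library, as a percentage of the gene's control mean (vertical axis, TMM-scaled CPM); blue marks are control, red marks are libraries labelled Nrf2 KO, open circles are replicate 1, horizontal lines are means and bars are SD (n = 3). Nqo1, Aldh3a1 and Ephx1 sit below all control libraries, with Nqo1 in Nrf2 KO replicate 1 at 13.8% of the control mean.

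Ephx1 encodes microsomal epoxide hydrolase, which turns reactive epoxides into diols. Control replicates gave 67, 68 and 55 counts, and Nrf2 KO replicates gave 0, 4 and 5 counts, or 1.71, 1.53 and 1.42 CPM against 0, 0.0815 and 0.122 CPM. The count of 0 in Nrf2 KO replicate 1 allows a level of up to 0.0958 CPM (3 counts, counting error only), which is close to the other libraries of its group. Every control library lay far above every library labelled Nrf2 KO, at a level that was low in both groups. The mean went from 1.55 ± 0.147 to 0.0677 ± 0.0619 CPM (SD, n = 3 each), a 22.9-fold difference of means, with a log2 fold change of -4.37 in edgeR (SE 0.65) at an adjusted p of 0.0139. Leaving out 1 library kept the size of the change, between -4.95 and -3.92, but the call was lost without control replicate 1 (adjusted p = 0.0700 by edgeR), 2 (0.0717) or 3 (0.0799) or Nrf2 KO replicate 2 (0.0636). Ephx1 is the gene with the largest fold change of the 9 and also the one with the fewest counts.

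Nqo1 encodes NAD(P)H quinone dehydrogenase 1, which reduces quinones without a radical intermediate and is a widely used readout of NRF2 activity. Its levels were 580.4, 1095 and 939.9 CPM for control replicates 1, 2 and 3, and 120.7, 462.2 and 473.8 CPM for Nrf2 KO replicates 1, 2 and 3. All libraries labelled Nrf2 KO were below the lowest control library, and replicate 1 was the lowest of its group on both sides. The means were 871.7 ± 263.9 and 352.2 ± 200.6 CPM (SD, n = 3 each), a 2.47-fold difference, and edgeR gave a log2 fold change of -1.31 with an SE of 0.55 and an adjusted p of 0.204, so the gene did not pass. Between libraries of the same number the log2 ratios were -2.27, -1.24 and -0.99 for numbers 1, 2 and 3. With the replicate number as a block edgeR gave -1.49 on the log2 scale (SE 0.29) with an adjusted p of 0.0315. That fit called 7.92% of all genes lower and 10.4% higher. Without both replicate 1 libraries it was -1.12 (adjusted p = 1.69e-04 by edgeR), in a fit that called 22.1% and 24.0%. These 2 were the only calls of Nqo1 in 9 other settings. Of 6 edgeR fits without 1 library, 1 called it (without Nrf2 KO replicate 1), with adjusted p up to 0.459.

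Aldh3a1, an aldehyde dehydrogenase that removes medium-chain and aromatic aldehydes and is abundant in cornea, showed the same order of libraries in the knockout group. Control replicates read 223.3, 245.2 and 232.4 CPM, against 73.7, 129.4 and 140.7 CPM for Nrf2 KO replicates 1, 2 and 3. The control libraries differed little (SD 4.70% of the mean), while the SD in the group labelled Nrf2 KO was 31.3% of its mean. The means were 233.6 ± 10.97 and 114.6 ± 35.8 CPM (SD, n = 3 each), a 2.04-fold difference, which edgeR put at -1.03 on the log2 scale (SE 0.26) with an adjusted p of 0.0685. Aldh3a1 missed the threshold with all 6 libraries. It passed with the replicate block (-1.08, adjusted p = 0.0300 by edgeR), by DESeq2 (adjusted p = 0.00663) and without Nrf2 KO replicate 1 (adjusted p = 0.00447 by edgeR). That was the 1 call of Aldh3a1 in 6 edgeR fits without 1 library, with adjusted p up to 0.246. The log2 ratios of same-numbered libraries were -1.60, -0.92 and -0.72.

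**Figure D2:**
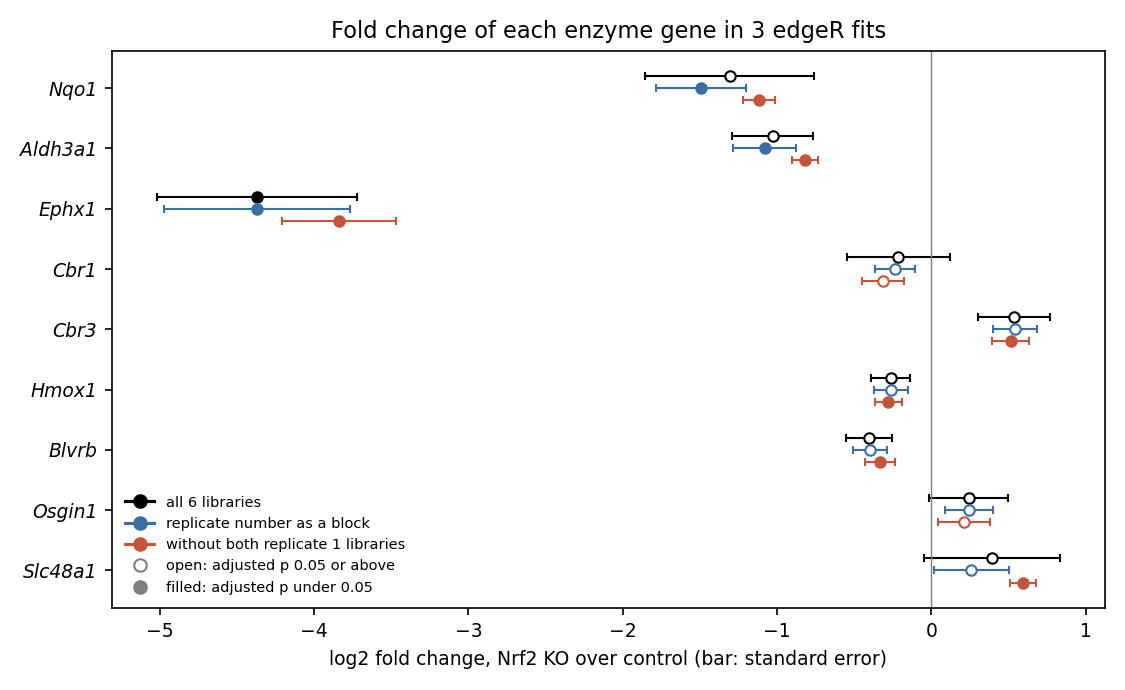
Log2 fold change of each of the 9 genes (horizontal axis, libraries labelled Nrf2 KO over control; bars are standard errors) in 3 edgeR fits: all 6 libraries (black), the replicate number as a block (blue) and without both replicate 1 libraries (red). Filled marks have an adjusted p under 0.05: Ephx1 in all 3 fits, Nqo1 and Aldh3a1 in the fits drawn in blue and red. The fit drawn in red also has filled marks for Cbr3, Hmox1, Blvrb and Slc48a1.

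The heme genes Hmox1 and Blvrb did not pass the test with all 6 libraries. Hmox1, heme oxygenase 1, the stress-induced enzyme that opens the heme ring, read 43.5, 41.8 and 44.8 CPM across the controls and 37.2, 34.9 and 36.3 CPM across the libraries labelled Nrf2 KO. The groups did not overlap, and the SD was 3.49% and 3.17% of the group means. EdgeR gave a log2 fold change of -0.26, an SE of 0.13 and an adjusted p of 0.268. Replicate 1, the lowest library of each group for Nqo1, lay within the range of its group for Hmox1 in the control libraries and just above the other libraries in the group labelled Nrf2 KO.

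Blvrb encodes biliverdin reductase B, which also reduces flavins. The controls read 103.5, 81.9 and 91.6 CPM and the libraries labelled Nrf2 KO read 71.9, 64.7 and 72.7 CPM, again without overlap. The change was -0.40 on the log2 scale (SE 0.15), with an adjusted p of 0.156 in edgeR. Both genes were lower in each pair of same-numbered libraries, with log2 ratios between -0.30 and -0.23 for Hmox1 and between -0.53 and -0.33 for Blvrb. Without both replicate 1 libraries the 2 genes passed, Hmox1 at -0.28 (adjusted p = 0.0326 by edgeR) and Blvrb at -0.33 (adjusted p = 0.0227 by edgeR), in a fit that called 22.1% of all genes lower and 24.0% higher.

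Slc48a1, the transporter HRG1 that moves heme out of lysosomes into the cytosol, did not move in 1 direction. Its levels were 21.4, 32.8 and 31.3 CPM for control replicates 1, 2 and 3, and 15.9, 47.2 and 49.3 CPM for Nrf2 KO replicates 1, 2 and 3. Nrf2 KO replicate 1 was the lowest of all 6 libraries, and replicates 2 and 3 of that group were the 2 highest. The log2 ratio was -0.43 for the pair numbered 1 and 0.52 and 0.65 for the pairs numbered 2 and 3. Over all libraries edgeR gave 0.39 on the log2 scale (SE 0.44) with an adjusted p of 0.651, and the value was 0.75 without Nrf2 KO replicate 1 (adjusted p = 0.0285 by edgeR). In mouse RefSeq genes (GRCm38.p6) the end of Slc48a1 overlaps Hdac7 by 32 bases. If the gene models used for the counts share this overlap, which is not known, reads there cannot be assigned to 1 of the 2 genes without a stated strand setting.

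**Figure D3:**
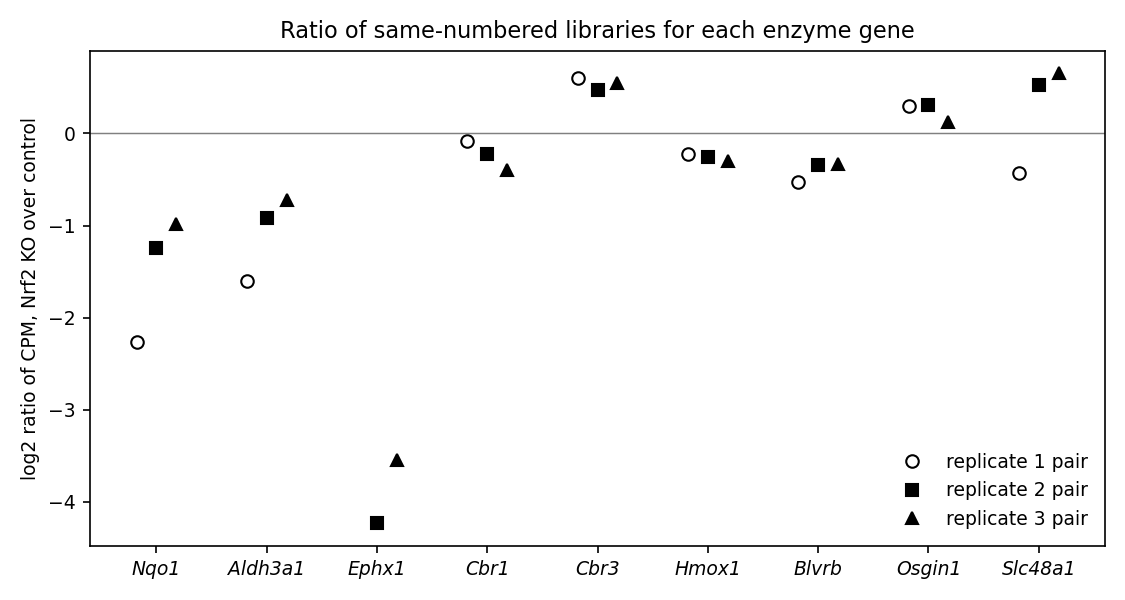
Log2 ratio of TMM-scaled CPM between the libraries of the same replicate number (vertical axis, Nrf2 KO over control) for each of the 9 genes; open circles are pair 1, squares pair 2 and triangles pair 3. Nqo1 ran from -2.27 to -0.99, and Slc48a1 changed sign between pair 1 and the other pairs; the pair 1 ratio of Ephx1 is not drawn because its count was 0.

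The carbonyl reductases Cbr1 and Cbr3 are next to each other on the mouse chromosome, and neither passed the test with all 6 libraries. Both reduce carbonyl groups of quinones, prostaglandins and anthracycline drugs with NADPH. Cbr1 read 26.0, 14.9 and 18.4 CPM across the controls and 24.5, 12.7 and 14.0 CPM across the libraries labelled Nrf2 KO. These groups overlapped, replicate 1 was the highest library on each side, and edgeR gave -0.21 on the log2 scale (SE 0.33) with an adjusted p of 0.761. The log2 ratios of same-numbered libraries were -0.09, -0.22 and -0.40, and with the replicate number as a block the value was -0.24 (SE 0.13, adjusted p = 0.256 by edgeR). Without control replicate 1, in a fit with no block, it was 0.031 (adjusted p = 0.974 by edgeR).

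Cbr3 read 5.41, 7.74 and 7.63 CPM across the controls and 8.24, 10.7 and 11.2 CPM across the libraries labelled Nrf2 KO. It was the only gene of the 9 with every library labelled Nrf2 KO above every control library, and its ratio was positive in each pair (0.61, 0.47 and 0.55 on the log2 scale). With all 6 libraries edgeR gave 0.54 on the log2 scale (SE 0.23) with an adjusted p of 0.219. The adjusted p was 0.0582 with the block on replicate number, 0.0459 when Nrf2 KO replicate 1 was left out and 0.0109 without both replicate 1 libraries, each by edgeR. The last of these fits called 22.1% of all genes lower and 24.0% higher. The coding sequences of mouse Cbr1 and Cbr3, taken as the longest reading frame of GENCODE transcripts, are 77.2% identical over 834 aligned bases with a longest identical run of 50 bases. Only a read no longer than such a run could match both genes exactly, and the sources used here do not say how the authors treated such reads.

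Osgin1, oxidative stress induced growth inhibitor 1, read 6.74, 4.52 and 5.70 CPM across the controls and 8.27, 5.58 and 6.22 CPM across the libraries labelled Nrf2 KO. The groups overlapped, with replicate 1 the highest on each side, while the ratio was positive in each pair (0.30, 0.30 and 0.13 on the log2 scale). EdgeR gave 0.24 on the log2 scale (SE 0.25) with an adjusted p of 0.630. In mouse RefSeq genes Osgin1 overlaps Gm32006 by 3681 bases, and reads there may not be assignable to 1 of the 2 genes. Whether the gene models used for the counts share this overlap is not known.

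The core of the antioxidant response element, the DNA letters NRF2 and a small MAF bind, was searched on both strands of RefSeq promoter windows of the mouse build GRCm38.p6, from 250 bases before to 50 bases after each start site. Of the 9 genes, 6 had a window, and Aldh3a1, Hmox1 and Slc48a1 did not. The spelling TGACNNNGC is 1 form of the core, and elements spelled otherwise are not counted by it. That spelling was found in 0 of the 6 genes, in 14% of all 27025 genes with a window (12.4% of all 32851 windows), and in 13 of 30 other NRF2 targets. The looser TGANNNNGC, which includes every match of the first, was found in 2 of the 6, Blvrb and Osgin1, in 45% of all genes with a window (41.3% of windows), and in 20 of the 30 other targets. The Osgin1 match also overlaps the letters TGACTCA, a motif added after the sequences were seen and present in 5.20% of all windows. Blvrb has a second window with 2 further matches. The match in the first window of each gene is shown with its flanks, to let the letters be compared. Capitals mark the match, which reads as the motif on the opposite strand in both. On that strand the matches are TGAGTCAGC (Osgin1) and TGAGTAGGC (Blvrb), each with G where TGACNNNGC has C.
Osgin1: caggggcccctGCTGACTCAcgcttatgaa
Blvrb: ttgactcctccGCCTACTCAtgctctttcc
The Osgin1 window is chr8:119436897-119437196 on the plus strand and the Blvrb window is chr7:27447728-27448027 on the plus strand, with matches that begin 99 and 69 bases before the start site. A match is a description of letters and does not show binding, and elements further from the start site lie outside these windows.

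Levels can be set between genes only on a scale that accounts for gene length, which the authors' deposited table gives as 1 FPKM value for each group and none by library. In that authors' deposited table Nqo1 was the highest of the 9 in both groups, at 492.8 FPKM in the control group and 194.1 FPKM in the group labelled Nrf2 KO. The authors' deposited table put Aldh3a1 above Blvrb in the control group (112.2 and 86.3 FPKM) and below it in the group labelled Nrf2 KO (54.1 and 64.6 FPKM). In the authors' deposited table Hmox1 (23.0 and 19.0 FPKM), Cbr1 (16.4 and 14.1 FPKM) and Slc48a1 (15.1 and 19.4 FPKM) formed a middle range whose order differed between the groups. The same authors' deposited table gave Cbr3 4.83 and 6.91 FPKM, Osgin1 1.91 and 2.24 FPKM, and Ephx1 0.725 and 0.0298 FPKM. With no spread in that table, the order of close neighbours such as Cbr1 and Slc48a1 could not be judged. The counts were listed under gene symbols of rat type, and mouse reads counted on gene models of another species can be lost unevenly between genes, so the order of genes is less certain than a ratio within 1 gene.

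**Figure D4:**
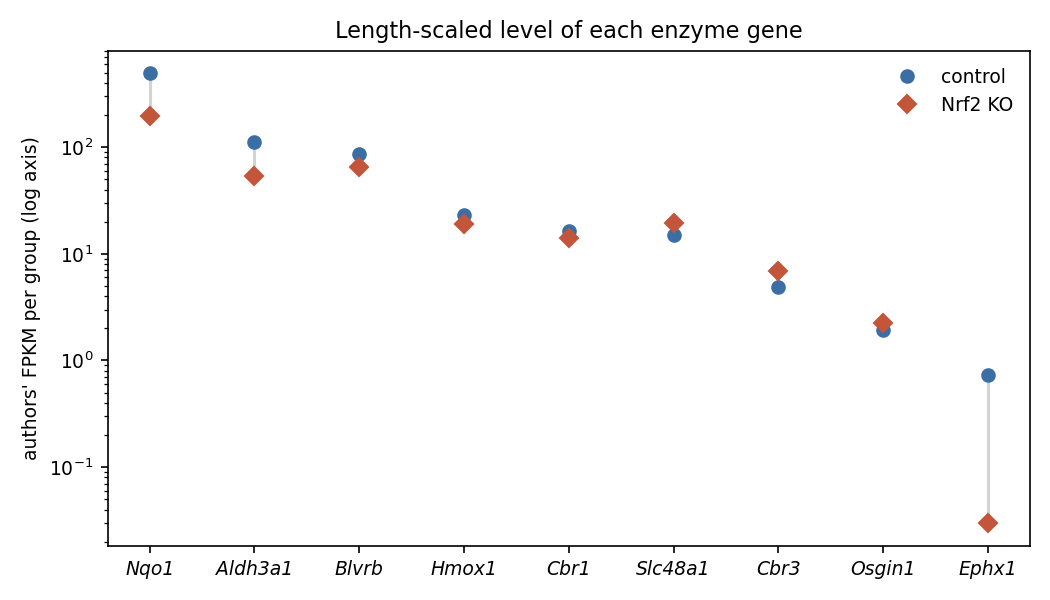
FPKM of each of the 9 genes from the authors' deposited table (vertical axis, log scale), 1 value per group: circles are control and diamonds the group labelled Nrf2 KO. The range runs from Nqo1 at 492.8 to Ephx1 at 0.725 in the control group.

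Among other genes of the pathway, 3 of 36 tested NRF2 targets outside the 9 were lower and 0 higher, with a median log2 fold change of -0.06 beside 0.04 for all genes. They included the glycine transporter gene Slc6a9 (log2 fold change -1.02, SE 0.14) and the glutathione transferase gene Gstp1 (-1.43, SE 0.26). Both were lower in every library labelled Nrf2 KO than in every control library. Of all genes tested, edgeR called 3.45% lower and 4.83% higher. DESeq2 called 6 of the other targets lower and 0 higher, where it called 6.38% and 8.21% of all genes. Reads of Gstp1 can be shared with near copies, so its level is uncertain. Without any 1 library other than Nrf2 KO replicate 1, 0 of these targets were called lower.

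Of 15 tested regulators of NRF2, 2 were higher and 1 lower, with a median of 0.27. Nfe2l2 was higher (log2 fold change 1.49, SE 0.33, adjusted p = 0.0456 by edgeR) and so was Maff, a small MAF (0.92, SE 0.18), while Mafk, another small MAF, was lower (-1.15, SE 0.13). With the replicate block 4 were higher and 1 lower, where 10.4% of all genes were called higher and 7.92% lower. Without any 1 library other than Nrf2 KO replicate 1, 0 regulators were called higher, and 1 was with upper-quartile scaling or library size alone. Keap1 was at 35.2 ± 2.84 and 38.6 ± 5.71 CPM. Bach1, the repressor that competes with NRF2 at the Hmox1 gene and is itself released by heme, was at 11.1 ± 6.66 and 31.8 ± 22.0 CPM (SD, n = 3 each) and overlapped between groups (adjusted p = 0.295 by edgeR).

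Of 23 tested genes of heme synthesis, transport and breakdown outside the 9, 1 was lower and 0 higher, with a median of 0.06. That gene was Fech, ferrochelatase, which inserts iron to complete heme. The controls read 13.2, 14.4 and 14.2 CPM and the libraries labelled Nrf2 KO 4.05, 3.10 and 3.21 CPM (log2 fold change -2.01, SE 0.20, adjusted p = 0.00377 by edgeR). The fitted change of Fech was further from 0 than those of Hmox1, Blvrb and Slc48a1 given above, a difference between genes that was not tested. With the replicate block 3 genes of this list were lower and 3 higher, where 7.92% and 10.4% of all genes were called. By DESeq2 3 were lower and 4 higher, where 6.38% and 8.21% of all genes were called.

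Of 21 tested relatives of the quinone, aldehyde, carbonyl and epoxide enzymes, 3 were lower and 0 higher, with a median of -0.29. Aldh5a1, succinate semialdehyde dehydrogenase, gave 79, 107 and 86 counts across the controls and 0, 4 and 5 across the libraries labelled Nrf2 KO (log2 fold change -4.88, SE 0.65). Adh7, an alcohol and retinol dehydrogenase, was lower (-1.16, SE 0.14), and so was Aldh8a1, at a level under 1 CPM (-1.84, SE 0.41). With the replicate block 6 relatives were lower and 1 higher, where 7.92% of all genes were called lower and 10.4% higher. Without control replicate 3, 0 relatives were called lower, and 1 was without control replicate 2 or without Nrf2 KO replicate 2. Nqo1 and Aldh3a1 are also known targets of the aryl hydrocarbon receptor, so genes of that pathway were counted as well. Of 7 tested, edgeR called 0 higher and 0 lower (1 and 1 at an unadjusted p under 0.05), DESeq2 called 1 lower and 0 higher, and edgeR with the replicate block called 1 and 1. Cyp1a1 had 0 counts in all libraries, which cannot be told from lost reads. Cyp1b1 was at 433.8 ± 62.0 and 555.8 ± 156.0 CPM, and Ptges3, a chaperone partner of the receptor, was at 986.1 ± 170.5 and 775.8 ± 190.9 CPM (SD, n = 3 each).

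**Figure D5:**
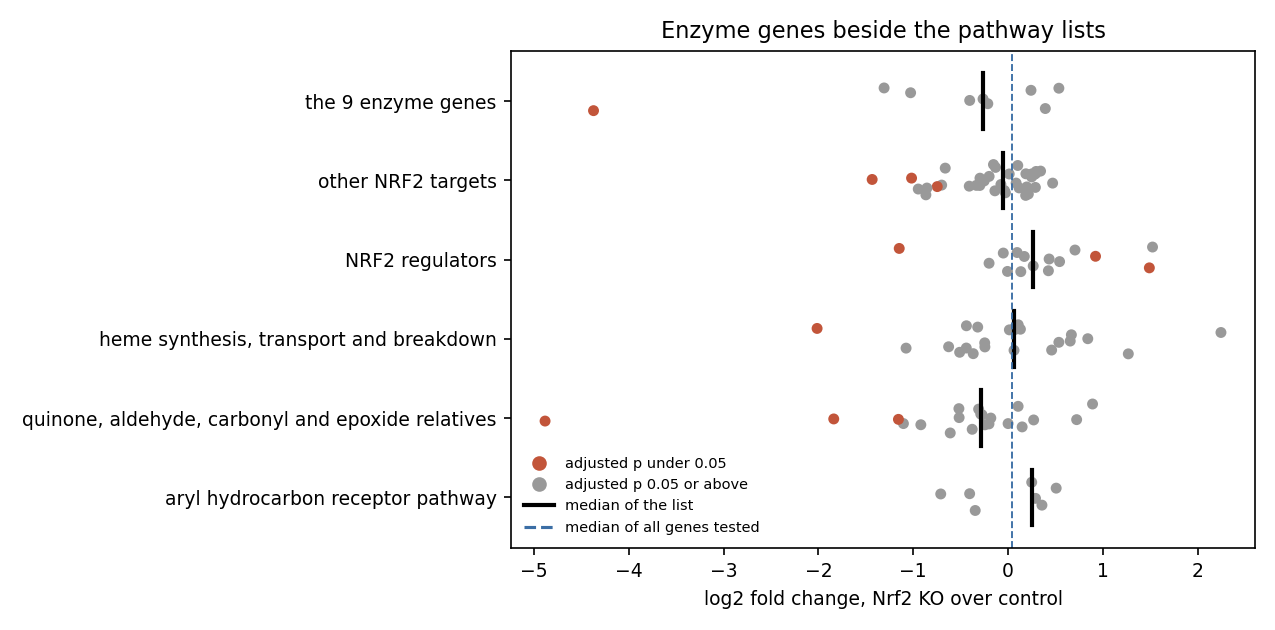
Log2 fold change (horizontal axis, libraries labelled Nrf2 KO over control) of the 9 genes and of each tested gene in the 5 pathway lists (1 point per gene, red where adjusted p is under 0.05); black bars are list medians and the dashed line is the median of all genes tested, 0.04. The 9 enzyme genes have a median of -0.26, and the list medians lie between -0.29 and 0.27.

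For each of the 9 genes the 2 closest patterns over the 6 libraries were taken from genes with a mean of at least 5 CPM, by Pearson's r of log2 CPM, as a description. The 6 libraries form 2 groups of 3 and share the split of replicate 1, and each pair is the best of 9600 candidates (9601 for Ephx1). The closest to Nqo1 were Nop16 (r = 0.9995) and Rcc2 (0.999), to Aldh3a1 Cotl1 (0.999) and Prkcsh (0.998), and to Ephx1 Obfc1 (0.998) and Ppic (0.997). The closest to Hmox1 were Hist3h2a (0.996) and Pdcd4 (0.995), to Blvrb Prelid3b (0.997) and Tp53rk (0.997), and to Slc48a1 Rhoa (0.999) and Sav1 (0.999). The closest to Cbr1 were Ndufb3 (0.998) and Rpl14 (0.997), to Cbr3 Sgta (0.999) and Rap2c (0.997), and to Osgin1 Vmp1 (0.992) and Fam160b2 (0.992). No gene was the closest to more than 1 of the 9.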

How the data were processed

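The deposited counts are whole numbers per gene symbol for 6 libraries; per the submitters' processing notes the tools included fastp, FastQC, HISAT2 and DESeq2 1.34.0, with the human build hg18. The sources used here give no counting tool, strand setting or annotation. Of the symbols 650 begin with RGD, used for rat genes. The authors also deposited FPKM, 1 value per group. The test used R 4.3.3 with edgeR 4.0.16 (filterByExpr, minimum count 10 and total 15; TMM; robust quasi-likelihood; group only), two-sided, adjusted over 14618 genes. Standard errors are the fold change over the root of F. Tests on simulated data with this fit recovered 67 of 100 genes at 2-fold and 100 of 100 at 4-fold (14452 genes), with 8 unchanged genes called. The simulation gave every gene the same dispersion and had no shift of replicate 1, so it does not give the power in these libraries. Alternatives used other scalings and filters, DESeq2 1.42.0, limma 3.58.1 (voom), the replicate block, and fewer libraries. Deviations of same-numbered libraries correlated at 0.754, 0.696 and 0.310, above the limit of 0.1, which was taken as pairing from the counts, not from the labels. Replicates 2 and 3 also correlated across numbers (control 2 with Nrf2 KO 3 at 0.539, control 3 with Nrf2 KO 2 at 0.278), so the split is mainly of replicate 1 from the others. No libraries agreed within sampling noise (chi-square per degree of freedom at least 14.3). The members, lists and tests were chosen with earlier results of these data known. Named genes are the 9, from each list up to 4 called genes by p (or the 2 of highest CPM where none was called), Nfe2l2, Keap1, Bach1, and the 2 closest patterns; Cyp1a1 was named after its values were seen. Some genes of the lists are counted but not reported here by name. A planned comparison of the Cbr1 and Cbr3 proteins was replaced by coding sequence (Biopython 1.88).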

Additional observations from a re-analysis of the deposited data

How the results depend on the processing

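Of 326 values recomputed under alternatives, 241 kept direction and side of the threshold (counts: within 1.5 times). The replicate block called 7.92% of all genes lower and 10.4% higher. It changed the calls of Nqo1 (log2 fold change -1.49) and Aldh3a1 (-1.08), which made 3 of the 9 genes lower. It changed no other call of the 9. Regulators then had 4 higher, the heme list 3 lower and 3 higher, relatives 6 lower and 1 higher, and the receptor list 1 lower and 1 higher. Aldh3a1 passed with upper-quartile scaling (-1.09, adjusted p = 0.0474), library size alone (-1.06, adjusted p = 0.0396) and DESeq2 (-1.02), each by its own fit across all genes, which made 2 of the 9 lower in each, and both of these scalings left 1 regulator higher. The receptor list had 1 lower with RLE factors, upper-quartile scaling, library size, DESeq2, limma-voom and the 1 CPM filter. DESeq2 also called 6 other targets lower, 3 heme genes lower and 4 higher, and 5 relatives lower, where it called 6.38% of all genes lower and 8.21% higher. Without both replicate 1 libraries edgeR called 22.1% of all genes lower and 24.0% higher. The log2 fold changes were then -1.12 for Nqo1, -0.82 for Aldh3a1, -0.28 for Hmox1 and -0.33 for Blvrb. They were 0.51 for Cbr3 and 0.59 for Slc48a1. All of these were called, and with Ephx1 this made 5 of the 9 lower and 2 higher. Other targets gave 8 of 36 lower and 9 higher, near the shares of all genes. Regulators gave 7 higher, the heme list 6 lower and 7 higher, relatives 8 and 4, and the receptor list 2 and 2. Leaving out 1 library in turn gave -1.58 to -0.90 for Nqo1, -1.20 to -0.80 for Aldh3a1, -4.95 to -3.92 for Ephx1, -0.57 to 0.031 for Cbr1 (0.031 without control replicate 1, a reversed sign), 0.38 to 0.66 for Cbr3 and 0.15 to 0.75 for Slc48a1. Over the same fits 0 to 3 of the 9 were lower and 0 to 2 higher. Other targets ran from 0 to 7 lower and 0 to 2 higher, and regulators 0 to 1 and 0 to 4. Heme genes ran 1 to 3 and 0 to 5, relatives 0 to 6 and 0 to 2, and receptor genes 0 to 1 and 0 to 2. The highest values came without Nrf2 KO replicate 1 for each of these except regulators lower. That fit called 14.5% of all genes lower and 15.6% higher. The looser motif matched promoters of 2 of the 6 genes with a window in place of 0, and TGACTCA of 1. The FPKM and CPM ratios of the 9 agreed in sign. No scaling moved the median of all genes by over 0.1. Apart from the motif letters and the fits with fewer samples, the cause was not tested. Ephx1 had 0 to 68 counts per library and was called in all 9 settings that were not a fit without 1 library.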

Other observations

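Replicate 1 differed from the mean of replicates 2 and 3 in the same direction in both groups for 8 of the 9 enzyme genes. Nqo1 in replicate 1 was 0.571 times that mean in the control group and 0.258 times in the group labelled Nrf2 KO, and Slc48a1 was 0.668 and 0.330 times. Aldh3a1 was 0.935 and 0.546 times, and Cbr3 0.704 and 0.752 times. Cbr1 was higher in replicate 1, at 1.56 and 1.83 times, as was Osgin1, at 1.32 and 1.40 times. Blvrb was at 1.19 and 1.05 times, and Hmox1, counted among the 8, was close to no difference at 1.00 and 1.04 times. The exception was Ephx1, at 1.16 times in the control group and at 0 counts in Nrf2 KO replicate 1. Over all genes tested, the deviations of replicate 1 correlated at 0.754 between the groups. The share of all genes with the same direction was not counted, so 8 of 9 is not shown to be particular to these genes. What the replicate number marks is not given in the labels.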
